A study of Mus musculus with 38 samples.

Results

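Of the 38 arrays hybridised with RNA of mouse brown adipose tissue, 11 were bright and 27 were dim, and these 2 classes are compared here. An array was classed by the 75th percentile of its processed signal over the spots for genes, and it was bright when that percentile was above 600 intensity units. The classes were therefore chosen by the same spot values that give the gene levels, so every difference between them in the level of a gene is a description with no p-value. The dimmest bright array, HFC at Day 10, stood at 625.4 and the brightest dim array, HFC at Week 0, at 430.

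The tissue came from C57BL/6J mice. The LFC mice were fed a low-fat control diet and the HFC mice a diet high in fat and sucrose. The HF5, HF20 and HF75 mice were fed the high-fat diet with 5, 20 or 75 µg of the botanical formulation KAL-1. LFC and HFC have 10 arrays each, from Day 6, 10 and 14 and from Week 0 to Week 18 in steps of 3 weeks, and each dose has 6 arrays, from Week 3 to Week 18. There is 1 array per group and time point, and the sources do not say for a single array whether its RNA came from 1 mouse or from a pool. The study's methods count the weeks from Day 14, so Day 14 and Week 0 are a single age sampled in separate runs. The diet and formulation groups are thus not replicated within a time point, and the spread between arrays may be in part technical.

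Brown adipose tissue burns fatty acids in its mitochondria, where the uncoupling protein UCP1 lets the energy go as heat. Noradrenaline reaches the brown adipocyte through the β3-adrenergic receptor, and coactivators of the PGC-1 family then raise the genes of thermogenesis, fatty acid oxidation and lipid synthesis. A piece of the tissue also carries vessels, blood, nerves and resident immune cells. Immediate early genes, such as Fos and Egr1, are transcribed within minutes of a stimulus to a cell, and heat shock genes when proteins misfold.

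**Figure D1:**
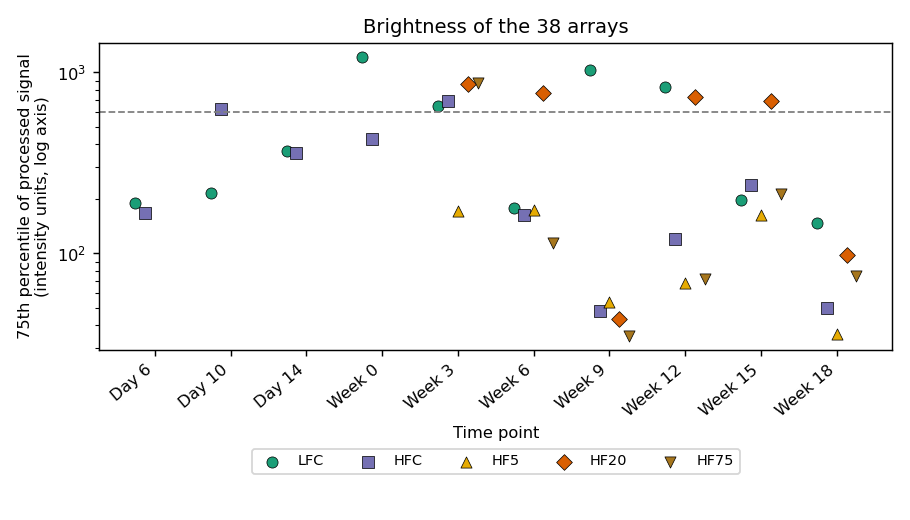
Each point is 1 array, with the time point on the horizontal axis and the 75th percentile of the processed signal (intensity units, log axis) on the vertical axis; symbols and colours give the 5 groups and the dashed line is the boundary of 600. The 11 bright arrays lie between 625.4 and 1209, and the 27 dim arrays between 35.1 and 430.

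The 11 bright arrays were HFC at Day 10, LFC at Week 0, the LFC, HFC, HF20 and HF75 arrays of Week 3, HF20 at Week 6, LFC at Week 9, LFC and HF20 at Week 12, and HF20 at Week 15. By group, 4 of 10 LFC arrays, 2 of 10 HFC arrays, 4 of 6 HF20 arrays, 1 of 6 HF75 arrays and 0 of 6 HF5 arrays were bright. The arrays of Day 6, Day 14 and Week 18 were all dim, and 7 of the 10 time points held both classes. Against the labels, the class gave an unadjusted p of 0.12 for the group, 0.29 for the time point, 0.0691 for the scan day and 0.0939 for the place on the slide (Fisher's exact test, two-sided). After Benjamini-Hochberg adjustment over these 4 tests the values were 0.16, 0.29, 0.16 and 0.16. None passed at 0.05, which does not show that class and label were unrelated. With the boundary at the median of 183 instead, the group, time point and scan day passed, with adjusted p of 0.0272, 0.0272 and 0.0153 by the same exact test. Joining Day 14 and Week 0, which are the same age, gave an unadjusted p of 0.288 for the time point (Fisher's exact test, two-sided). At that age the LFC array was dim when labelled Day 14, with a percentile of 367, and bright when labelled Week 0, at 1209, while both HFC arrays were dim.

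The spots for genes and the control spots did not move together. The mean log2 percentile of the bright arrays was 6.49-fold above that of the dim arrays. E1A spike-in RNA is added in a set amount to each labelling reaction, and its 10 probes are read from 320 spots on every array. Its mean log2 signal was 9.25 ± 0.79 (SD, n = 11) on the bright and 8.91 ± 0.78 (SD, n = 27) on the dim arrays. This difference was 0.34 on the log2 scale, or 1.27-fold (permutation test, two-sided, p = 0.228, adjusted p = 0.342 over 3 measures). Of the 320 spots, 0 to 64 were saturated on a bright and 0 to 61 on a dim array, which can make this difference too small. Of the 27 dim arrays, 23 had a spike-in signal inside the range of the bright arrays. Within the 6 scan days that held both classes, the spike-in difference ran from -0.23 to 0.46, and the bright arrays were higher on 4 of the 6. Negative control spots, which match no mouse transcript, stood at 1.23 ± 0.35 (SD, n = 11) on bright and 1.01 ± 0.24 (SD, n = 27) on dim arrays (permutation test, two-sided, p = 0.0356, adjusted p = 0.107), and ran from -0.26 to 0.80 within the 6 scan days. Local background differed by 0.047 on the log2 scale (permutation test, two-sided, adjusted p = 0.447). The yield of RNA was not among the values used here, so its part in the brightness was not tested.

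**Figure D2:**
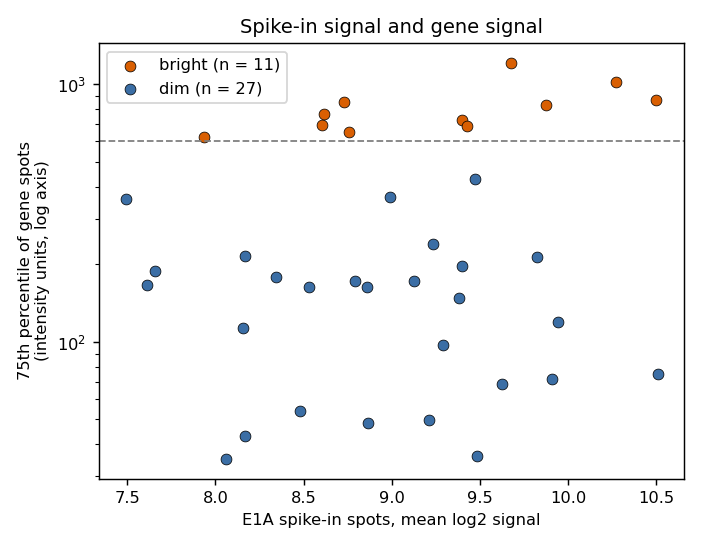
Each point is 1 array, with the mean log2 signal of the E1A spike-in spots on the horizontal axis and the 75th percentile of the gene spots (intensity units, log axis) on the vertical axis; orange is bright, blue is dim and the dashed line is 600. The spike-in signals of 23 of the 27 dim arrays lie inside the bright range, while the gene signals of the classes lie apart by the rule.

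Dynamic range also differed between the classes. Saturated spots numbered 285 to 985 on a bright and 7 to 148 on a dim array. From 62.6% to 72.3% of the gene probes were well above background on a bright array, and from 36.6% to 78.8% on a dim array. Gene levels are given below as the log2 processed signal minus the log2 of the array's 75th percentile, so a level of 0 is at that percentile. On this scale the same scanner ceiling lies lower on a bright than on a dim array, and so does the detection limit. The difference of a saturated or undetected gene can thus hold part of the percentile itself, and saturation is given beside the genes named below.

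The bright library labelled HF75 at Week 3 stood apart from the other 37 arrays in the genes that define brown adipose tissue. Its level of Ucp1 was -3.07, and the other 37 arrays ran from 3.38 to 8.57 with a median of 6.28. Cidea, a lipid droplet protein of brown adipocytes, was at -1.78 against 5.58 to 8.77. Cox8b, a subunit of cytochrome oxidase in brown fat and muscle, was at -2.01 against 4.04 to 8.07. All 3 were below every other array. The adipocyte hormone Adipoq was at 4.16 there, inside the range of the others (1.57 to 6.72). Prdm16, a regulator of brown fat identity, was at 1.67, equal to the median of the others. The gene farthest above its highest level elsewhere was Sult1e1, an oestrogen sulfotransferase, at 4.83 against at most -1.02, followed by Msln, which encodes mesothelin, at 2.51 against at most -2.74; both were chosen after their values were seen. In all, 1249 of 21856 tested genes were above and 2122 below all other arrays in this library. The brown markers of this library do not bear out its tissue label, so the list results and the fitted differences of named genes are given with and without it. The values of a gene's further probes come from all 38 arrays.

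Between the classes, 3509 of the 21856 tested genes were at least 2-fold higher on bright arrays in a linear model with class, time point and group. This was 16.1% of the genes. Another 6763 genes, or 30.9%, were at least 2-fold lower, and the median difference over all genes was -0.31 on the log2 scale. Levels of the 11 bright and the 27 dim arrays did not overlap in 618 genes (2.83%). Without the library labelled HF75 at Week 3, 3746 genes (17.1%) were at least 2-fold higher and 6947 (31.8%) at least 2-fold lower. Levels of the other 10 bright arrays did not overlap those of the dim arrays in 2718 genes (12.4%), of which 1461 were higher and 1257 lower. The rule used this contrast, so these shares stand only as the background for the lists. In bulk tissue, fewer cells of a type and less RNA per cell cannot be told apart.

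Genes of brown adipocyte metabolism were higher on the bright arrays, although the most abundant of them could not be compared. Of 20 brown thermogenic genes, 13 were at least 2-fold higher and 1 at least 2-fold lower, against 16.1% and 30.9% of all genes. Their median was 2.63 on the log2 scale, against -0.31 over all genes. With the library labelled HF75 at Week 3 left out, 13 were higher and 0 lower, with a median of 2.91. Adrb3, the β3-adrenergic receptor, ran from 2.18 through a median of 5.70 to 6.61 on the bright arrays. On the dim arrays it ran from -0.19 through 1.73 to 3.46. Its fitted difference was 4.16 ± 0.40 (SE), and its lowest bright value was the library labelled HF75 at Week 3. Without that library the bright arrays began at 4.85 and the groups did not overlap, with a difference of 4.42 ± 0.34 (SE). The probe was saturated on 3 bright arrays.

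The PGC-1 coactivators were higher too. Ppargc1b, which encodes PGC-1β, differed by 4.05 ± 0.43 (SE), and Ppargc1a, which encodes PGC-1α, by 2.82 ± 0.58 (SE), or by 4.43 and 3.31 without the library labelled HF75 at Week 3. Ppargc1a ran from 1.41 to 3.88 on the 10 other bright arrays and was at -3.18 in the library labelled HF75 at Week 3. On the dim arrays it ran from -1.97 through -0.62 to 1.44, so that the 10 bright arrays and the dim arrays met only at the edge. Both probes of the gene gave a like value, 2.82 and 2.48. Kcnk3, a potassium channel of brown adipocytes, differed by 3.57 ± 0.44 (SE) and Slc27a2, a fatty acid transporter and very long-chain acyl-CoA synthetase, by 4.07 ± 0.68 (SE), or by 3.95 and 4.75 without that library. Dio2, the deiodinase that makes active thyroid hormone, differed by 3.00 ± 0.74 (SE), or 3.45 without that library, with overlapping groups. The transcriptional regulator Prdm16 went the other way, at -0.62 ± 0.19 (SE), or -0.60 without that library, and was lower at 6 of the 7 time points.

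Ucp1 itself had overlapping groups. Its bright arrays ran from -3.07 through 6.56 to 6.75 and its dim arrays from 3.38 through 6.23 to 8.57. The probe was saturated on 8 of 11 bright and 0 of 27 dim arrays, and its fitted difference was -0.39 ± 0.83 (SE), or 0.42 ± 0.40 (SE) without the library labelled HF75 at Week 3. The other Ucp1 probe, with no saturated spot, gave 1.5 ± 1.08 (SE). Cidea, the member counted as lower, was saturated on 10 bright arrays and differed by -1.21 ± 0.69 (SE), or -0.52 without that library, and Cox8b, also saturated on 10, by 0.20 ± 0.74 (SE), or 0.93 without it. Elovl3, a fatty acid elongase of cold-exposed brown fat, ran from -8.32 to 2.63 on bright and from -7.11 to 1.61 on dim arrays, and differed by 1.19 ± 0.97 (SE), or 1.59 ± 0.94 (SE) without that library. The bright arrays had the higher Elovl3 level at 4 time points and the lower at 3, and without the time point in the model its difference was -0.55.

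**Figure D3:**
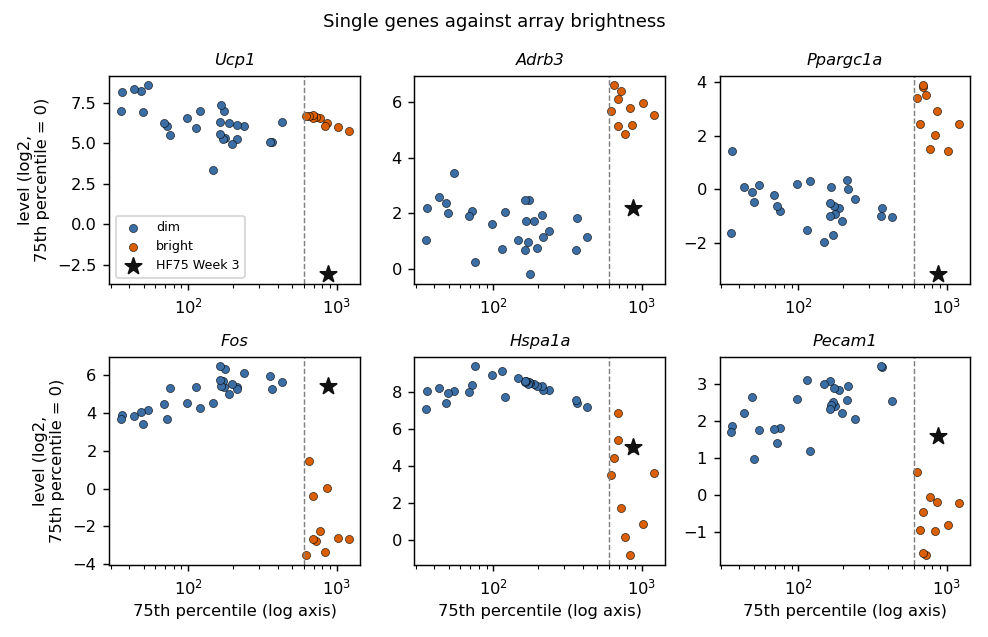
Each point is 1 array, with its 75th percentile (log axis, the boundary of 600 dashed) on the horizontal axis and the level of a gene (log2, 75th percentile = 0) on the vertical axis; the star is the library labelled HF75 at Week 3. Adrb3 and Ppargc1a are higher and Fos, Hspa1a and Pecam1 lower on the bright arrays, and Ucp1, saturated on 8 bright arrays, overlaps.

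Oxidation and lipid synthesis moved the same way. In fatty acid oxidation, 13 of 18 genes were at least 2-fold higher and 0 lower (median 2.0), against 16.1% and 30.9% of all genes. Without the library labelled HF75 at Week 3, 15 were higher, with a median of 2.35. Cpt1b, which carries long-chain fatty acids into the mitochondrion, ran from 4.29 to 5.31 on the 10 other bright arrays, was at -1.44 in that library, and ran from -0.27 through 0.98 to 2.95 on the dim arrays. Its difference was 3.48 ± 0.57 (SE), and 4.03 ± 0.29 (SE) without that library. Acads, a short-chain acyl-CoA dehydrogenase, differed by 2.86 ± 0.42 (SE), and Slc25a20, the carnitine carrier, by 2.87 ± 0.48 (SE), or 3.20 and 3.14 without that library.

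In the tricarboxylic acid cycle, 10 of 14 genes were at least 2-fold higher and 0 lower, against 16.1% and 30.9% of all genes. The median was 1.93, or 2.22 without that library, with 11 higher without it. Ogdh, a subunit of oxoglutarate dehydrogenase, differed by 2.45 ± 0.42 (SE), or 2.82 without it. Of 30 genes of mitochondrial respiration, 17 were at least 2-fold higher and 1 at least 2-fold lower, against the same shares of all genes. Their median was 1.15, or 1.41 with the same counts without that library. Sdha and Sdhb, subunits of succinate dehydrogenase, differed by 2.61 ± 0.39 (SE) and 2.38 ± 0.40 (SE), and Ndufv2, a subunit of complex I, by 2.35 ± 0.36 (SE), or by 2.97, 2.71 and 2.61 without that library. Sdhb was saturated on 6 bright arrays. Cox6a1, at -1.69, or -1.66 without that library, was counted as lower, but it was saturated on all 11 bright and on 6 dim arrays, so its true difference is not measured. A saturated spot on at least 1 array was found in 24 of the 30, and the median of the 6 others was 2.24.

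In lipogenesis 13 of 19 genes were at least 2-fold higher and 1 lower (median 2.23), against 16.1% and 30.9% of all genes. Without the library labelled HF75 at Week 3, 14 were higher and 0 lower (median 2.35). Mlxipl, which encodes the carbohydrate response factor ChREBP, ran from 4.08 to 5.71 on the 10 other bright arrays, was at -2.40 in that library, and ran from -2.15 through -0.11 to 1.51 on the dim arrays. Mlxipl differed by 4.05 ± 0.58 (SE), or 4.57 without that library. Gpam, the acyltransferase that opens glycerolipid synthesis, differed by 4.10, Elovl6 by 3.68 ± 0.62 (SE), Agpat2 by 3.49 ± 0.58 (SE) and Acaca, acetyl-CoA carboxylase, by 3.35 ± 0.52 (SE). Without that library these 4 differed by 4.37, 4.29, 3.93 and 3.77, and Elovl6 was saturated on 2 bright arrays. Fasn, the fatty acid synthase, had 2 probes that disagreed. The brighter of them, saturated on 10 bright arrays and 1 dim array, gave -1.01 ± 0.28 (SE), or -0.96 without that library, and the other 3.10 ± 0.58 (SE). Scd1, the stearoyl-CoA desaturase, was saturated on 6 bright arrays and differed by 1.70 ± 0.35 (SE), or 1.69 without that library.

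General adipocyte genes behaved in part likewise. Of 12, 7 were at least 2-fold higher and 1 lower (median 1.26), against 16.1% and 30.9% of all genes. Without the library labelled HF75 at Week 3, 8 were higher and 1 lower (median 1.38). Plin1, which coats the lipid droplet, differed by 3.68 ± 0.45 (SE), Adipoq by 3.00 ± 0.37 (SE), Cebpa by 2.90 ± 0.37 (SE) and Plin4 by 2.75 ± 0.32 (SE), and by 4.04, 3.18, 3.19 and 2.92 without that library. Adipoq was saturated on 10 bright arrays, Plin1 on 9 and Plin4 on 8. The brightest probe of Fabp4, a fatty acid binding protein, was saturated on all 38 arrays and gives no difference, although the count above takes it as the lower gene, and its unsaturated probe gave -0.01 ± 0.22 (SE). Of 9 white adipocyte genes 7 were tested, and 5 were at least 2-fold higher and 0 lower (median 1.29), against the same shares of all genes. Without that library 3 were higher and 1 lower (median 0.96), against 17.1% and 31.8% of all genes. At Week 9 the white adipocyte list differed by only 0.0006 between the classes. Lep, which encodes leptin, ran from -1.85 through -0.17 to 1.83 on bright and from -6.24 through -3.71 to -1.71 on dim arrays, and was well above background on 11 bright and 15 dim arrays. Its difference was 3.26 ± 0.53 (SE), or 3.31 without that library.

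**Figure D4:**
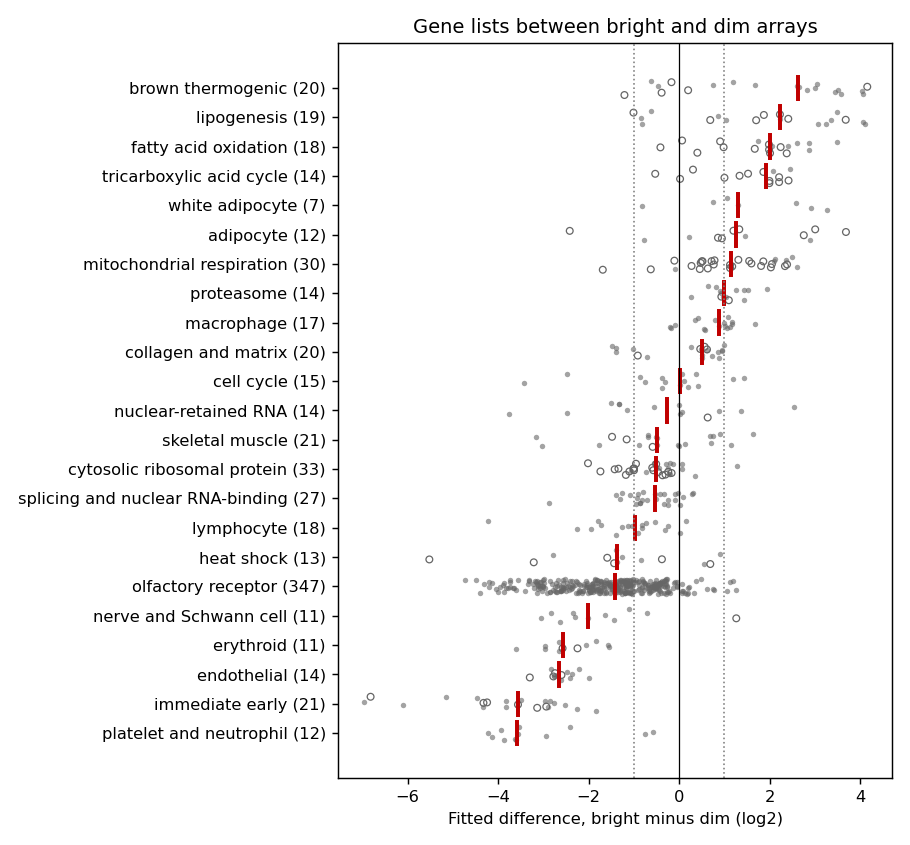
Each point is 1 tested gene, placed by its fitted difference, bright minus dim (log2), in the row of its list with the number tested in brackets; open circles had a saturated spot on at least 1 array, red bars are list medians and dotted lines mark 2-fold. Medians run from -3.58 in the platelet and neutrophil list to 2.63 in the brown thermogenic list.

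Blood genes were lower on the bright arrays. All 11 tested genes of the 17 in the erythroid list were at least 2-fold lower, against 30.9% of all genes. Their median was -2.58, or -2.46 without the library labelled HF75 at Week 3. With the same lowest level given to every array the median was only -0.10. Of the 11, 4 were well above background on all 38 arrays, and 3 were so on fewer than 6 dim arrays. Slc4a1, the anion exchanger of red cells, ran from -4.61 through -3.07 to -1.87 on bright and from -2.27 through 0.07 to 2.68 on dim arrays, a difference of -2.97 ± 0.45 (SE), or -2.79 without that library. Alas2, the first enzyme of haem synthesis in red cells, differed by -2.95 ± 0.44 (SE), or -2.82 without it, and the ranges of both genes overlapped. The globin genes were read near saturation in both classes. Hbb-b1 was saturated on 9 bright and 24 dim arrays and Hba-a1 on 6 and 23. The Hbb-b1 probe with the fewest saturated spots, 3 of 38, gave -2.96 ± 0.49 (SE). The library labelled HF75 at Week 3 had the lowest erythroid level of all arrays, -4.15.

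Platelet and neutrophil genes were lower as well, with a median of -3.58. Of 12, 10 were at least 2-fold lower, against 30.9% of all genes. Without the library labelled HF75 at Week 3 the median was -3.65 and 11 were lower, and with the same lowest level given to every array the median was -0.73. Gp9, a platelet surface glycoprotein, ran from -5.32 through -4.06 to -2.99 on bright and from -0.93 through -0.13 to 1.97 on dim arrays, without overlap, and differed by -4.22 ± 0.35 (SE), or -4.35 without that library. Ppbp, a platelet chemokine, differed by -3.94 ± 0.33 (SE), or -4.10 without that library, also without overlap. The neutrophil genes S100a9 and Camp differed by -3.62 ± 0.65 (SE) and -3.88 ± 0.65 (SE), or -3.70 and -4.23 without that library, with overlap. Pf4 and Mpo, at -0.58 and -0.75, were the 2 members short of 2-fold, and without that library they were at -0.83 and -1.04.

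Among 18 lymphocyte genes 9 were at least 2-fold lower (median -0.98), against 30.9% of all genes. Without the library labelled HF75 at Week 3, 10 were lower (median -1.10), against 31.8% of all genes. The median was -0.026 when every array was given the same lowest level. Only 1 of the 18 was well above background on all 38 arrays, and it differed by 0.022. The list was higher on the bright arrays at Week 6, by 0.97, and lower at the 6 other time points. Ccr7, the homing receptor of lymphocytes, differed by -4.23 ± 0.57 (SE), while Cd3e of the T cell receptor complex differed by -0.91 ± 0.55 (SE), or -4.53 and -0.85 without that library.

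Macrophage genes leaned the other way with every array included. Of 17, 7 were at least 2-fold higher and 0 lower (median 0.88), against 16.1% and 30.9% of all genes. Cd163, a haemoglobin scavenger receptor, was at 1.67 ± 0.41 (SE) and C1qa of the complement system at 0.80 ± 0.41 (SE). Without the library labelled HF75 at Week 3 3 of the 17 were at least 2-fold higher, near the 17.1% of all genes, the median was 0.78, and Cd163 and C1qa were at 1.38 and 0.57. By time point the difference of the macrophage list ran from -1.02 at Week 15 and 0.05 at Week 0 to 1.67 at Week 6.

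Genes of the vessel wall were lower together. All 14 endothelial genes were at least 2-fold lower on the bright arrays, against 30.9% of all genes. Their differences ran from -3.30 to -1.99. The median was -2.65, or -2.84 without the library labelled HF75 at Week 3. Pecam1, which encodes the junction protein CD31, ran from -1.64 to 0.63 on 10 bright arrays, was at 1.59 in that library, and ran from 0.97 through 2.43 to 3.49 on the dim arrays. Its difference was -2.84 ± 0.30 (SE), or -3.04 without that library. Cdh5, or VE-cadherin, differed by -2.77 ± 0.27 (SE), Flt1, a receptor of vascular endothelial growth factor, by -2.78 ± 0.27 (SE), and the tight junction gene Cldn5 by -3.30 ± 0.45 (SE), and without that library by -2.96, -2.86 and -3.66. Flt1 was saturated on 1 dim array and Cldn5 on 1 array of each class. Without the library labelled HF75 at Week 3, 13 of the 14 did not overlap between the classes, against 12.4% of all genes. All 14 were well above background on all 38 arrays.

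Of 11 tested nerve and Schwann cell genes 9 were at least 2-fold lower and 1 higher, against 30.9% and 16.1% of all genes. Their median was -2.02, or -1.95 without the library labelled HF75 at Week 3. With the same lowest level given to every array the median was -0.72, and 6 of the 11 were well above background on all 38 arrays. Tubb3, the neuronal tubulin, differed by -2.63 ± 0.32 (SE) without overlap, and the myelin genes Mbp and Prx by -2.83 ± 0.54 (SE) and -3.05 ± 0.45 (SE). Without that library these 3 differed by -2.52, -2.60 and -3.02, and the counts were the same. S100b, at 1.26, or 1.69 without that library, was the member that was higher, and it was saturated on 1 bright array. Skeletal muscle genes varied more within a class than between them. Acta1, the muscle actin, ran from -2.94 through 2.22 to 6.4 on bright and from -0.32 through 1.42 to 6.27 on dim arrays, and its difference was -0.49 ± 1.04 (SE), or -0.35 without that library. Ckm, the muscle creatine kinase, differed by -0.03 ± 1.45 (SE), or 0.47 without it. Of 21 muscle genes, 2 were at least 2-fold higher and 5 lower, against 16.1% and 30.9% of all genes. Without that library 5 were higher and 4 lower, against 17.1% and 31.8% of all genes.

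Collagen and matrix genes had no common direction. Of 20, 0 were at least 2-fold higher and 4 lower, with and without the library labelled HF75 at Week 3, against 16.1% and 30.9% of all genes. The median was nevertheless above 0, at 0.51, or 0.40 without that library. By time point the list was higher on the bright arrays at 4 and lower at 3, from -1.19 to 0.83. The 4 lower genes were Fn1, which encodes fibronectin, Timp1, an inhibitor of matrix proteases, and the basement membrane collagens Col4a1 and Col4a2, at -1.49, -1.40, -1.39 and -1.02, or -1.80, -1.67, -1.48 and -1.11 without that library.

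Immediate early genes were lower together. All 21 tested members were at least 2-fold lower on the bright arrays, against 30.9% of all genes. Their differences ran from -6.97 to -1.83. The median was -3.56, or -3.77 without the library labelled HF75 at Week 3. Fos, a subunit of the AP-1 factor, ran from -3.52 to 1.47 on 10 bright arrays and was at 5.42 in that library. On the dim arrays it ran from 3.42 through 5.25 to 6.46. The difference was -6.97 ± 0.67 (SE), and -7.55 ± 0.44 (SE) without that library, with no overlap. Socs3, an inhibitor of cytokine signalling, differed by -6.82 ± 0.63 (SE), Atf3, a stress-induced factor, by -6.10 ± 0.57 (SE), and Zfp36, which speeds the decay of cytokine mRNAs, by -5.16 ± 0.50 (SE), and without that library by -7.34, -6.61 and -5.59. Socs3 was saturated on 1 bright array.

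Egr1, a zinc finger factor, differed by -4.32 ± 0.52 (SE), or -4.65 without that library, and was saturated on 1 bright array. Its 10 other bright arrays reached 4.11, just into the dim range of 4.10 to 6.65. All 21 genes were well above background on all 38 arrays. In the library labelled HF75 at Week 3 the mean level of the list was 5.15, inside the dim range of 3.76 to 5.93 and above the other 10 bright arrays at 0.15 to 2.23. Without that library 14 of the 21 did not overlap between the classes, beside the same 12.4% of all genes.

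Promoters of the immediate early genes are shown because all tested members differed in the same direction. Of the 21, 18 had an entry in the RefSeq promoter table (GRCm38.p6), which was searched over the 250 bases before each start. The cAMP response element, TGACGTCA, which is its own reverse complement, was found in 2 of the 18 genes and in 478 of 27025 genes of the table (1.77%). The CArG box, the site of serum response factor, was searched in a form that reads the same on both strands, and was found in 2 of the 18 and in 439 of 27025 (1.62%). No window shown holds both motifs in these forms. Egr2 has 2 starts in the table, each with a CArG box before it, and 1 of them is shown. Windows around the motifs read as follows, 5′ to 3′ on the strand of the gene, with the motif in capitals.
Zfp36, chr7:28379257-28379306, minus strand: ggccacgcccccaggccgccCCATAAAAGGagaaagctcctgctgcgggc
Egr2, chr10:67537777-67537826, plus strand: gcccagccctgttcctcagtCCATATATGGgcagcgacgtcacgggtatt
Btg2, chr1:134079294-134079341, minus strand: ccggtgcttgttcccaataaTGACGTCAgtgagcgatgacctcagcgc
Dusp1, chr17:26508588-26508635, minus strand: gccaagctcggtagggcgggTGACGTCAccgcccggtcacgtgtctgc
The 4 genes differed by -5.16 (Zfp36), -3.82 (Egr2), -3.49 (Btg2) and -2.76 (Dusp1) between the classes, and by -5.59, -4.05, -3.77 and -2.96 without the library labelled HF75 at Week 3. A match is only a run of letters in this window, and its part in the difference was not tested.

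Heat shock genes were lower in part. Of 13 tested, 8 were at least 2-fold lower and 0 higher (median -1.36), against 30.9% and 16.1% of all genes. Without the library labelled HF75 at Week 3, 8 were lower and 1 higher (median -1.37). Hspa1a, the inducible chaperone HSP70, ran from -0.83 through 3.61 to 6.86 on bright and from 7.07 through 8.31 to 9.40 on dim arrays, without overlap. Its difference was -5.52 ± 0.61 (SE), or -5.53 without that library, and its other 3 probes gave -5.84, -6.88 and -7.15. The probe was saturated on 15 dim arrays, which can make this difference too small. Hspb1, the small chaperone HSP27, differed by -3.21 ± 0.30 (SE), or -3.32 without that library, and was saturated on 2 dim arrays. The mitochondrial chaperones Hspd1, saturated on 10 bright arrays, and Hspe1 were at 0.69 and 0.90, or 0.91 and 1.12 without that library.

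Among nuclear-retained RNAs the members had no common direction, with 7 of the 14 above 0. The mean level of the list was nevertheless lower on the bright arrays at 6 of the 7 time points with both classes. Of 14 tested nuclear-retained RNAs, 2 were at least 2-fold higher and 6 lower, against 16.1% and 30.9% of all genes. Their median was -0.28, beside -0.31 over all genes. Without the library labelled HF75 at Week 3 the counts were the same and the median was -0.48. Malat1, a long RNA of nuclear speckles, ran from 2.14 through 4.87 to 5.30 on bright and from 3.78 through 5.07 to 7.55 on dim arrays, and its 4 probes gave -1.09 to -1.26. The probe used for Malat1 gave -1.16, or -1.15 without that library. Neat1, the scaffold of paraspeckles, differed by 0.63 ± 0.32 (SE), with 1 bright array saturated, and Meg3 by 0.88 ± 0.36 (SE), or 0.84 and 0.82 without that library, although the other 3 probes of Meg3 gave -0.43 to -0.09. Airn, an antisense RNA of the Igf2r locus, differed by -3.76 ± 0.97 (SE), or -4.24 without that library. Splicing and nuclear RNA-binding genes had 0 of 27 at least 2-fold higher and 5 lower, against 16.1% and 30.9% of all genes, and 8 lower without that library. The shift was small but mostly downward, with 4 of the 27 above 0 and the list lower at all 7 time points with both classes. Its median was -0.53, but 0.14 after normexp background correction. Sf3b1, a subunit of the spliceosome, led the list at -2.87 ± 0.71 (SE), or -3.32 without that library. The level of Sf3b1 in that library was 5.36, with the other bright arrays at most at 0.48. Cell cycle genes had 2 of 15 higher and 2 lower (median 0.03), against 16.1% and 30.9% of all genes. Without that library 2 were higher and 3 lower (median -0.08).

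Of the housekeeping lists, all 14 proteasome genes were higher on the bright arrays. At least 2-fold higher were 7 of them (median 1.0), against 16.1% of all genes. Without the library labelled HF75 at Week 3, 9 were at least 2-fold higher (median 1.11). Psmb5, a catalytic subunit, ran from 2.34 through 3.89 to 4.59 on bright and from 0.06 through 2.44 to 3.38 on dim arrays, a difference of 1.93 ± 0.27 (SE), or 2.09 without that library. Cytosolic ribosomal protein genes had 1 of 33 at least 2-fold higher and 8 lower, against 16.1% and 30.9% of all genes. The median was -0.51, with the same counts and median without that library, but 0.42 after normexp background correction. Of the 33, 18 had a saturated spot. Among the 15 others 1 was at least 2-fold higher and 1 lower, with a median of -0.23. Rplp0, often used as a reference gene, was saturated on 10 bright arrays and 1 dim array, and differed by -1.43, or -1.42 without that library. No mitochondrially encoded gene of the 15 listed had a probe of that name.

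**Figure D5:**
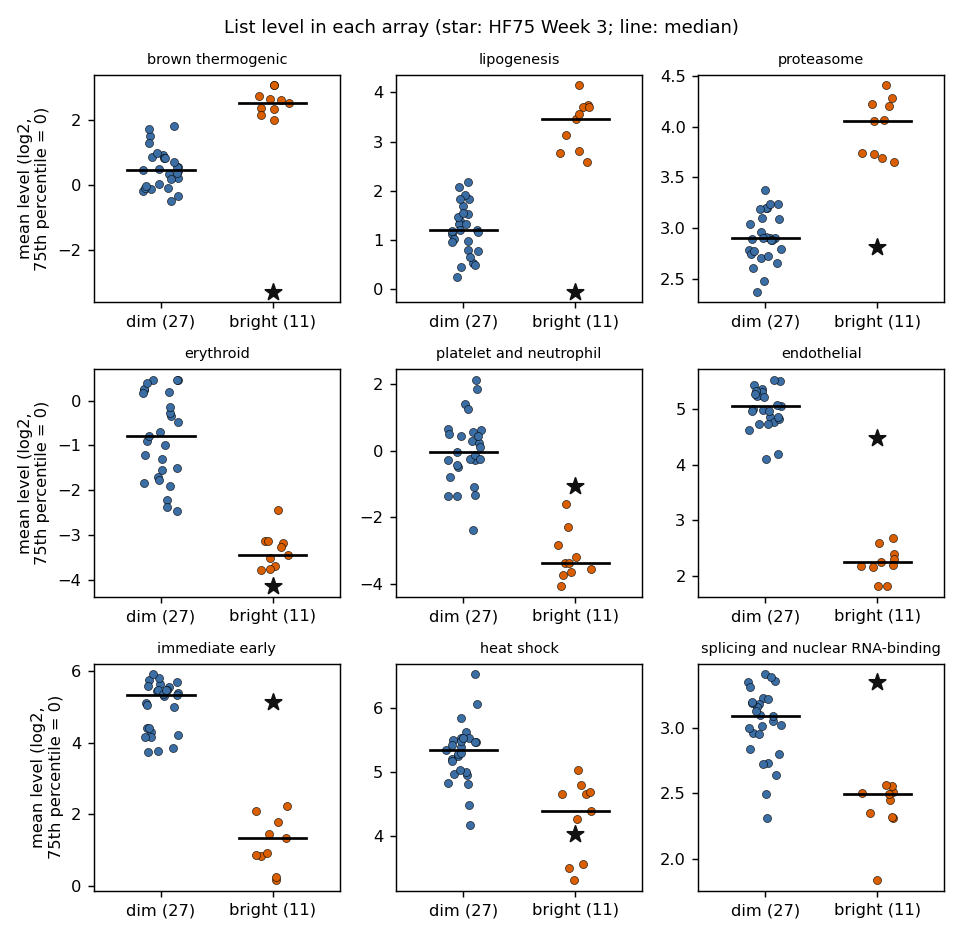
Each point is 1 array and each panel 1 gene list, with the mean level of the tested members (log2, 75th percentile = 0) on the vertical axis; lines are class medians over all arrays of the class and the star is the library labelled HF75 at Week 3. Apart from the star, all 10 bright arrays lie above the 27 dim arrays in the brown thermogenic, lipogenesis and proteasome lists and below them in the endothelial and immediate early lists.

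The direction of the brown thermogenic, endothelial and immediate early lists was the same at every time point with both classes. At all 7 time points with both classes the bright arrays had the higher mean level of the brown thermogenic list, by 1.32 to 2.75, and the lower level of the immediate early list, by -5.32 to -3.03. The endothelial list was lower at all 7, by -3.38 to -2.29. Week 3 holds the library labelled HF75, and without it the brown thermogenic difference there went from 1.32 to 2.74, the immediate early one from -3.03 to -3.84 and the endothelial one from -2.43 to -2.95. Each of the 6 scan days with both classes lies within 1 time point. They therefore repeat these contrasts, without Week 9 and with fewer arrays of Week 6, and are no separate check. On them the brown thermogenic difference ran from 1.32 to 2.75, the endothelial one from -3.38 to -2.29 and the erythroid one from -2.77 to -1.43. Keeping 1 direction at all 7 was not particular to these lists. The proteasome list was higher at all 7, by 0.82 to 1.37. The erythroid list was lower at all 7, by -3.31 to -1.43, and so was the olfactory receptor list, by -2.83 to -0.71. Some lists varied in size from time point to time point. At Week 9, where LFC was the bright array, mitochondrial respiration differed by only 0.21, the tricarboxylic acid cycle by 0.41, fatty acid oxidation by 0.51 and general adipocyte genes by 0.47, while lipogenesis differed by 2.19. The bright array of Week 9 was scanned on another day than the 4 dim ones, whose files hold signals of 3 significant digits. Class, group and scan day cannot be told apart there. The lymphocyte and macrophage lists turned direction at Week 6 and Week 15, as given above.

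Slides with both classes, whose arrays share a slide and a scan, numbered 3. They held HFC and LFC of Day 10, HF20 and HF5 of Week 3, and HF20 and HF5 of Week 15, the bright array first. Fos stood at -3.52 against 5.37 on the first of these slides, at 0.05 against 5.70 on the second and at -0.37 against 5.70 on the last. Adrb3 stood at 5.70 against 1.16, 5.19 against 0.96 and 6.14 against 2.48. On the same slides the percentiles differed by 2.91-fold, 4.99-fold and 4.24-fold, and the spike-in signals by -0.23, -0.40 and 0.57 on the log2 scale. The groups on each of these slides differ too, so diet and dose cannot be told apart from class there.

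Within a class, the lists did not all follow the percentile as they did between the classes. Among the 27 dim arrays the mean immediate early level changed by 0.52 ± 0.08 (SE) for each doubling of the percentile, opposite in sign to the class difference. The brown thermogenic level changed by -0.38 ± 0.09 (SE) per doubling, also opposite in sign, with -0.16 ± 0.05 (SE) after normexp background correction, and the endothelial level by 0.12 ± 0.06 (SE). The erythroid level changed by -0.55 ± 0.15 (SE), the same sign as between the classes, but by -0.27 with a common lowest level, -0.33 after normexp and -0.13 ± 0.14 (SE) after quantile normalization. Among the 11 bright arrays the slopes were -0.73 ± 1.57 (SE) for the immediate early list and -1.01 ± 2.06 (SE) for the brown thermogenic list, with errors larger than the slopes and the library labelled HF75 at Week 3 included. Without that library, an alternative chosen after seeing the data, they were -1.36 ± 0.69 (SE) and -0.12 ± 0.41 (SE). The immediate early slope within bright arrays turned to 0.62 ± 2.63 (SE) without the brightest and the dimmest of them, so no direction is given for it. A slope here shares the percentile between both of its axes and is a description.

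The share of lower genes was highest among weakly expressed genes. In the lowest of 10 bins of genes by mean level 72.0% were at least 2-fold lower and 0.183% higher, and in the highest bin 17.1% and 20.8%. Olfactory receptors, known from the sensory neurons of the nose, had 244 of 347 tested members at least 2-fold lower, against 30.9% of all genes. Without the library labelled HF75 at Week 3, 236 were lower. When every array was given the same lowest level, 2224 genes were at least 2-fold lower instead of 6763, and the erythroid median went to -0.10, while 2608 were higher instead of 3509. Of the 10707 genes well above background on all 38 arrays, 2125 were at least 2-fold higher and 2306 lower.

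By the naming rule, the 10 genes with the highest differences were Gm3289, Lctl, Slc1a3, Acvr1c, Kng1, Gpr120, Slc19a1, Tmem45b, Ces3 and Kng2, from 5.83 down to 4.25. Without the library labelled HF75 at Week 3 they ran from 4.66 to 6.37. Gpr120 is a receptor for long-chain fatty acids, and Acvr1c, or ALK7, a receptor of the activin family found in adipocytes. Slc1a3 is a glutamate and aspartate transporter, and Slc19a1 carries reduced folate. Lctl ran from 2.27 to 5.05 on 10 bright arrays, was at -3.82 in the library labelled HF75 at Week 3 and ran from -3.61 to 0.09 on the dim arrays. The 2 probes of Slc19a1 disagreed, at 4.39 and -0.50.

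The 10 lowest were Fos, Socs3, Aqp5, Tgm5, Gm5099, Atf3, Fgf2, Lifr, Gm1758 and Rph3al, from -6.97 to -6.00, and from -7.55 to -6.51 without the library labelled HF75 at Week 3. Fgf2 is a fibroblast growth factor, Aqp5 a water channel and Lifr the receptor of leukaemia inhibitory factor. Outside the immediate early genes these had wide dim ranges, as for Fgf2, which ran from -3.76 through 2.04 to 5.71 on dim and from -8.38 to -2.32 on 10 bright arrays. For Lifr 1 probe gave -6.07 ± 0.92 (SE) and the other 5 gave -0.71 to -0.16, so the difference was that of 1 probe. Among 2252 genes with several probes well above background on all arrays, 1949 had the same sign in all probes and 10 had probes past 2-fold in opposite directions.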

How the data were processed

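Brown adipose RNA was labelled with Cy3 and hybridised to 1-colour Agilent arrays. The authors' deposited scanner files give each spot as an intensity, background-subtracted by Agilent Feature Extraction (version 9.1 in the submitters' processing notes, version 10.5.1.1 in the file headers) and not scaled between arrays. For Week 9, 4 files hold signals of 3 significant digits. A deposited log2 table holds the authors' own comparisons with the LFC array and was not used.

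Control spots and outlier spots were dropped and the spots of a probe averaged, after which the log2 75th percentile of the array was subtracted. A gene name took its brightest probe. Of 29411 names, 21856 were tested, those above background on 6 or more of 38 arrays. Class, time point and group were fitted with limma 3.58.1 in R 4.3.3, and no p-value was taken from that fit. A gene was counted at a fitted difference of 1 on the log2 scale. In simulated data for this comparison (21856 genes), 94% of genes changed by -1.5 and 92% of those changed by 1.5 passed that size, 100% of those changed by 3 in either direction, and 4.62% of unchanged genes. The simulated noise was independent between arrays, with no detection limit and no saturation. The 4.62% is therefore not an error rate for the counts of genes given above. Control spots were compared by permutation (100000 resamples) and labels by Fisher's exact test, with Benjamini-Hochberg adjustment.

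The members and lists were chosen with earlier results of these data known. Named genes were the 10 highest and 10 lowest differences among genes above background on at least 6 bright and 14 dim arrays that kept their sign at all but at most 1 time point with both classes, the 4 largest of each list under the same detection limit, and fixed members; others named from the lists were chosen after their values were seen. A result that this rule names is not reported here. Alternatives covered scaling, background, filters, probes, the boundary, covariates, slide, scan day, and arrays or time points left out. The number of arrays limits the precision.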

Additional observations from a re-analysis of the deposited data

Results flagged for a closer look

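In 135 sets of arrays (27 measures in 5 groups) the highest or lowest array was set against the others of its group by Dixon's test, which marks about 1 in 20 sets by chance, and 8 were marked. The library labelled HF75 at Week 3 accounts for 4 of them. Its mean brown thermogenic level, -3.29, was the lowest of the HF75 arrays, with the nearest at -0.04. Its macrophage level, 1.53, was the highest, with the nearest at 0.31. Its nerve and Schwann cell level, -2.05, lay below the nearest at -0.60, and its cytosolic ribosomal protein level, 5.05, below the nearest at 5.55. The 5 other HF75 arrays were all dim, so these 4 sets compare a bright array with dim ones. The other 10 bright arrays ran from -2.77 to -1.41 in the nerve list and from 4.78 to 5.25 in the ribosomal list, and reached 1.55 in the macrophage list. Of the 4 levels, only the brown thermogenic one lay outside the range of those bright arrays. Among dim arrays, the skeletal muscle level of HF75 at Week 12 was 3.98 and the next highest -1.55. The splicing level of HF75 at Week 9 was 2.64 and the next lowest 3.09. The heat shock level of HF5 at Week 3 was 5.84 and the next highest 5.47. The log2 local background of HF20 at Week 18 was 4.48 and the next lowest 4.65.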

How the results depend on the processing

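Over 37 alternatives the medians of 17 of 23 lists kept their sign, among them the brown thermogenic, lipogenesis, proteasome, erythroid, endothelial and immediate early lists. Quantile normalization gave 4030 lower genes and medians of 1.84 (mitochondrial respiration), 1.88 (white adipocyte), -1.02 (erythroid), -1.21 (nerve and Schwann cell) and -0.15 (olfactory receptor). Normexp background correction gave 1.38 (brown thermogenic), 2.06 (mitochondrial respiration), 2.70 (tricarboxylic acid cycle), 2.14 (adipocyte), -1.91 (erythroid), -2.04 (platelet and neutrophil), -1.69 (endothelial), -1.04 (cell cycle), -2.42 (immediate early), -0.35 (heat shock) and 1.83 (proteasome), and turned the splicing list to 0.14, the cytosolic ribosomal list to 0.42, Fasn to 0.038, Mirg to -0.24, Tnnt3 to 0.23 and Agt to -0.017. Its proteasome slope within dim arrays was 0.21. A common floor gave 2224 lower genes, medians of -0.10 (erythroid), -0.73 (platelet and neutrophil), -0.026 (lymphocyte), -0.72 (nerve and Schwann cell), -0.033 (nuclear-retained RNA) and 0 (olfactory receptor), and Tnnt3 at 0.58. Without a filter 14064 genes were lower and the nuclear-retained median was -0.56. Among genes well above background on all 38 arrays 2125 were higher and 2306 lower. The list medians there rest on few genes, at 0.022 (lymphocyte, 1 gene), -0.54 (cell cycle, 4 genes) and -2.56 (olfactory receptor, 13 genes). Of the genes past 2-fold, 34.2% were higher in the fit reported, 53.8% after quantile normalization, 23.9% after normexp, 54.0% with the floor, 20.0% without a filter and 48.0% among those well above background on all arrays. The median difference of all genes was -0.31 in the fit reported, 0.06 after quantile normalization, -0.76 after normexp and 0 with the floor.

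With the boundary at the median the medians were 1.38 (lipogenesis), -2.19 (platelet and neutrophil), -1.92 (endothelial), -1.23 (nerve and Schwann cell), -2.47 (immediate early) and -0.24 (cytosolic ribosomal), and Fisher's exact p was 0.0181 for group, 0.0204 for time point and 0.00382 for scan day. With the log2 percentile as a number they were 1.28 (fatty acid oxidation), 1.14 (tricarboxylic acid cycle), 1.37 (lipogenesis) and -2.12 (endothelial), scaled to the gap between the class means. Without the time point as a block, the heat shock median was -0.87 and Elovl3 -0.55, and with class alone the heat shock median was -0.88. LFC and HFC arrays alone gave -0.86 (nuclear-retained RNA), and leaving out HF20 gave -2.82 (platelet and neutrophil). Leaving out genes with a saturated spot, chosen after seeing the data, gave 2.24 (mitochondrial respiration), 0.83 (adipocyte), -0.56 (nuclear-retained RNA) and -0.22 (cytosolic ribosomal).

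Leaving out an array or a time point gave 3344 to 3746 higher and 6089 to 7061 lower genes, and without Day 10 or its bright array the white adipocyte median was 2.01 (0.96 to 2.01 over bright arrays left out). Without the brightest and the dimmest array, slopes within bright arrays were -3.26 (brown thermogenic), 1.13 (endothelial) and 0.62 (immediate early). Without the array labelled HF75 at Week 3, chosen after seeing the data, they were -0.12, -0.19 and -1.36. The negative control difference passed without Day 10 (0.27, permutation test, adjusted p = 0.0257), Week 15 (0.27, adjusted p = 0.0415) or Week 18 (0.28, adjusted p = 0.0245), and local background without Week 18 was -0.0061. Of 4666 values for 128 genes, 4480 moved by less than the spread between arrays, 180 by more, and 6 changed sign. The cause of these changes was not tested.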
